A study of Mus musculus with 2 samples.

Results

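The genes Nr5a1, Nr5a2, Nr0b1, Gata4, Gata6, Wt1, Cited2 and Tcf21, which encode transcription factors and cofactors of the adrenal cortex and its primordium, were measured in whole adrenal glands of male B6CASTF1/J mice aged 2 months. The members were taken by gene symbol, which gave 8 genes of 55536 and 36 annotated transcripts of 141767. Per the labels, 300 ng of total RNA went into each library, prepared with a directional kit and with ERCC spike-ins (synthetic control RNAs) added. There was 1 group of 2 libraries, called replicates 1 and 2, with no treatment, allele or second condition named. Each library was quantified in 2 ways by the authors, from alignments to the transcriptome (alignment-based) and from the reads and an index (read-based), so the comparisons are between quantifications, between libraries and among the genes. The gene tables held 36512736 and 34454892 expected counts. The labels do not settle whether the libraries came from separate animals, so the spread between them may be technical.

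Steroidogenic cells of the adrenal cortex depend on the nuclear receptor encoded by Nr5a1 (steroidogenic factor 1), which binds the promoters of genes for cholesterol uptake and steroid synthesis. In the mouse embryo the adrenogonadal primordium forms from Wt1-positive coelomic epithelium, where the Wt1 and Cited2 products raise Nr5a1. The receptor-like protein of Nr0b1 (Dax1) lacks the usual DNA-binding domain and restrains Nr5a1. GATA factors bind close to Nr5a1 sites in steroidogenic promoters, and Tcf21 marks mesenchymal cells, including those of the adrenal capsule. In a whole gland the RNA of cortex, medulla, capsule, vessels and attached fat is mixed, so fewer cells of a type and less RNA per cell cannot be told apart.

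The 8 genes covered a wide range of levels, with Nr5a1 highest and Gata6 and Cited2 next. Levels are in TPM, the transcripts of a gene per 1000000 transcripts, which corrects for transcript length. In 6 genes the level was 1 TPM or more in both libraries by the alignment-based table, and Nr5a2 and Gata4 were under 1 TPM in both. That split depends on the scale. With the alignment-based TPM rescaled to protein-coding genes alone, Nr5a2 had 1.61 and 2.10 TPM and Gata4 1.68 and 1.61 TPM. The order was Nr5a1, Gata6, Cited2, Tcf21, Nr0b1, Wt1, Nr5a2 and Gata4 by both quantifications. Each neighbour in that order was separate from the next in both libraries, except Nr5a2 and Gata4, whose values overlapped by both quantifications.

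**Figure D1:**
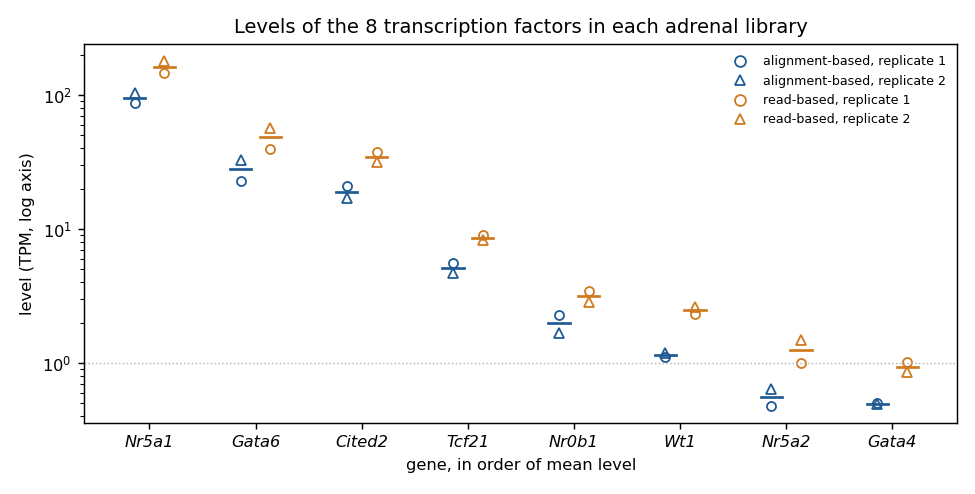
Level of each gene in TPM on a log axis, with blue for the alignment-based and orange for the read-based table, circles for replicate 1, triangles for replicate 2 and lines for the mean of the 2. Nr5a1 lies at 87.3 and 103 TPM by the alignment-based table, and the dotted line marks 1 TPM, under which both libraries of Nr5a2 and Gata4 lie in that table.

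Nr5a1 had 87.3 and 103 TPM in replicates 1 and 2 by the alignment-based table, a mean of 95.1 ± 10.9 TPM (SD, n = 2). The read-based tables gave 146 and 179 TPM. It lies on the minus strand at chr2:38692656-38714542 (GRCm38). Of 22015 nuclear protein-coding genes, 493 had a higher mean alignment-based level, which is 2.24%. The level rests on 9468 and 10351 expected counts, and replicate 2 was the higher library by both quantifications.

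Nr5a2 (liver receptor homologue 1), the close relative of Nr5a1 that binds the same DNA motif and is best known from liver, pancreas and ovary, was at the low end. Its level was 0.48 and 0.64 TPM by the alignment-based table, from 57 and 80 counts. The read-based level was 0.996 and 1.48 TPM. Nr5a1 was therefore 171 ± 15.1-fold above Nr5a2 by the alignment-based table and 134 ± 18.3-fold by the read-based tables (SD of the within-library folds, n = 2). It lies at chr1:136842571-136960448 on the minus strand. The longest run of bases that any transcripts of the pair share was 20. None of the 100-base windows of the 36 transcripts recurred, on either strand, in an annotated transcript of another gene.

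Markers of liver and pancreas were few. Of 10 listed genes, 2 reached 1 TPM in both libraries by the alignment-based table. These were the elastase gene Cela1 at 25 and 26.6 TPM and the apolipoprotein gene Apoa2 at 1.31 and 1.15 TPM. Albumin (Alb) had 66 and 347 counts, apolipoprotein Apoa1 had 18 and 47 counts, and the pancreatic factor Ptf1a had none. By the read-based tables Alb (1.61 and 9.11 TPM) and Apoa1 (1.04 and 4.26 TPM) reached 1 TPM in both libraries as well. The summed level of the list was 28.5 TPM in replicate 1 and 35.2 TPM in replicate 2. Alb was higher in replicate 2 beyond counting, with a log2 ratio of 2.40. Over the whole table, 16.7% of the 15660 genes averaging at least 20 counts were called higher. The hepatocyte factor gene Hnf4a had 7 and 32 counts, an average under that minimum. Apoa2 had 19 and 16 counts, also under it and in the other direction. The part of RNA from such cells in the Nr5a2 values was not tested.

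Nr0b1 had 2.26 and 1.68 TPM by the alignment-based table (1.97 ± 0.41, SD, n = 2) and 3.45 and 2.85 TPM by the read-based tables. Here replicate 1 was the higher library, from 150 and 104 counts. The gene lies at chrX:86191764-86195947 on the plus strand and has 1 annotated transcript, so it has no isoform choice. Nr5a1 stood 49.9 ± 15.9-fold above it by the alignment-based table and 52.5 ± 14.5-fold by the read-based tables. Within the libraries the alignment-based fold was 38.6 in replicate 1 and 61.2 in replicate 2, with the genes higher in opposite libraries.

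Gata6, the GATA factor of the adult adrenal cortex, had 22.9 and 32.8 TPM by the alignment-based table (27.8 ± 6.97, SD, n = 2) and 39.7 and 57.0 TPM by the read-based tables. Gata4, which acts in the gonad and in the early adrenal primordium, had 0.50 and 0.49 TPM by the alignment-based table and 1.01 and 0.849 TPM by the read-based tables. Gata4 rests on 37 and 36 counts, against 2503 and 3181 for Gata6. Gata6 was 56.3 ± 14.9-fold above Gata4 by the alignment-based table and 53.2 ± 19.7-fold by the read-based tables. Gata6 lies at chr18:11052064-11085635 on the plus strand and Gata4 at chr14:63198922-63271692 on the minus strand, and their transcripts share no run longer than 18 bases.

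Cited2, which encodes a coactivator that binds CBP and p300, had 20.9 and 17.0 TPM by the alignment-based table (19.0 ± 2.78, SD, n = 2) and 37.5 and 31.8 TPM by the read-based tables. It lies at chr10:17723218-17725674 on the plus strand. Of the protein-coding genes, 14.9% had a higher mean level, against 9.63% for Gata6.

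Wt1, the zinc-finger factor of coelomic epithelium, mesothelium and podocytes, had 1.10 and 1.19 TPM by the alignment-based table (1.15 ± 0.0636, SD, n = 2) and 2.31 and 2.62 TPM by the read-based tables, from 98 and 85 expected counts. The libraries were close to each other, with TPM higher in replicate 2 and counts higher in replicate 1. Its locus is chr2:105126529-105173616 on the plus strand. Of 7 mesothelium markers, 4 reached 1 TPM in both libraries by the alignment-based table. The summed level of the 7 was 12.3 TPM in replicate 1 and 11.7 TPM in replicate 2. Mesothelin (Msln) had 2.98 and 2.75 TPM, and uroplakin Upk3b 3.13 and 2.44 TPM, so these markers were of the same order as Wt1.

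The defining podocyte marker nephrin (Nphs1) was close to absent, with 1.06 and 1 expected counts. The podocyte list summed to 43.6 TPM in replicate 1 and 45.8 TPM in replicate 2, of which Podxl, also made by endothelium, gave 23.3 and 24.6 TPM. Gonadal somatic cells share Nr5a1, Gata4 and Wt1 with the primordium. Among 9 markers of these cells, Insl3 alone reached 1 TPM in both libraries by the alignment-based table, at 2.05 and 1.85 TPM. Sox9 had 1.22 and 0.98 TPM in that table. By the read-based tables Sox9 had 2.10 and 1.80 TPM, beside 2.48 and 1.48 TPM for Insl3. The gonadal list summed to 3.69 TPM in replicate 1 and 3.06 TPM in replicate 2, and the gonadal genes Fshr and Dmrt1 had 0 counts in both libraries.

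Tcf21, a basic helix-loop-helix factor, had 5.56 and 4.66 TPM by the alignment-based table (5.11 ± 0.636, SD, n = 2) and 8.96 and 8.24 TPM by the read-based tables. It lies at chr10:22817281-22820174 on the minus strand. All 10 markers of capsule and stroma reached 1 TPM in both libraries. Their summed level was 257 TPM in replicate 1 and 222 TPM in replicate 2, with decorin (Dcn) highest at 94.97 and 79.95 TPM, and the nuclear receptor gene Nr2f2 and the collagen gene Col3a1 near each other at means of 39.4 ± 1.91 and 38.3 ± 9.93 TPM (SD, n = 2). Tcf21 and the summed stromal level were both lower in replicate 2, though Nr2f2 was higher there, at 38.1 and 40.8 TPM in replicates 1 and 2. A link between Tcf21 and the stromal level was not tested.

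The NR5A target genes checked the labelled tissue. Of 14 targets, 13 reached 1 TPM in both libraries by the alignment-based table. The 14 summed to 16143 TPM in replicate 1 and 17975 TPM in replicate 2. The cholesterol carrier gene Star was highest at 5294 and 5939 TPM, and the ACTH receptor gene Mc2r had 99.7 and 99.1 TPM, about the level of Nr5a1. Inhibin alpha (Inha) had 11.1 and 12.5 TPM. Cyp17a1, the 17-alpha-hydroxylase that adult mouse adrenals are known to lack, was the exception at 0.87 and 0.85 TPM by that table. By the read-based tables it had 1.84 and 1.63 TPM, above 1 TPM in both libraries.

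Of 20 partners and upstream factors, 19 reached 1 TPM in both libraries. Beta-catenin (Ctnnb1) was highest at 257 and 277 TPM, and the corepressor gene Ncor1 averaged 52.8 ± 6.36 TPM (SD, n = 2). The Friend-of-GATA cofactors differed from their GATA partners in level, with 7 and 6.79 TPM for Zfpm1 and 2.49 and 2.81 TPM for Zfpm2. Cbx2, a Polycomb gene upstream of Nr5a1, had 1.47 and 2.07 TPM. The basic helix-loop-helix partners of Tcf21 were above it, with 42.8 and 51.9 TPM for Tcf4, 23.5 and 28.1 TPM for Tcf12 and 16.0 and 17.3 TPM for Tcf3. Six4 was the member under 1 TPM, at 0.35 TPM in both libraries.

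Between the libraries, Nr5a1 and Gata6 were higher in replicate 2 and Nr0b1, Cited2 and Tcf21 lower, beyond counting error. The ratio of replicate 2 over replicate 1 was taken from expected counts after TMM scaling, with an exact 95% Clopper-Pearson interval that covers counting error only. The log2 ratio was 0.14 for Nr5a1 (interval 0.10 to 0.18) and 0.36 for Gata6 (0.28 to 0.43). It was -0.52 for Nr0b1 (-0.89 to -0.15), -0.37 for Cited2 (-0.49 to -0.26) and -0.33 for Tcf21 (-0.61 to -0.06). The Tcf21 call was lost with scaling by total count (-0.26) and with the TPM ratio (-0.25). Such calls were frequent over the whole table, where 16.7% of the 15660 genes averaging at least 20 counts were called higher and 17.4% lower.

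**Figure D2:**
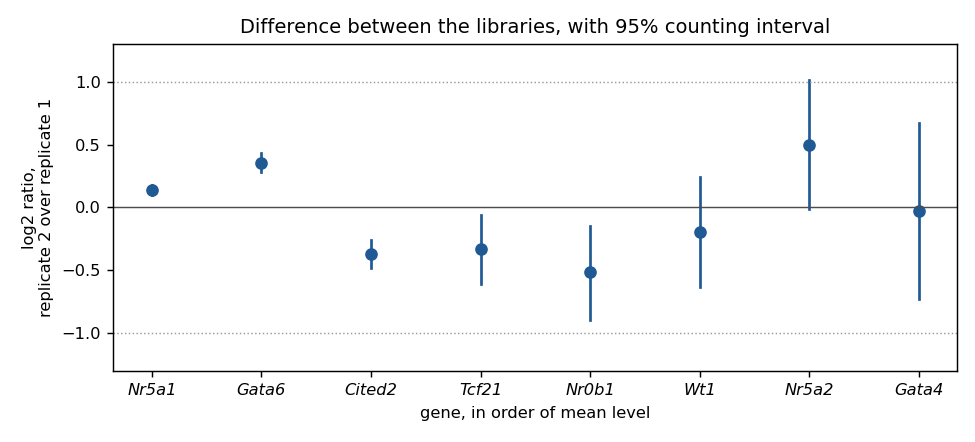
Log2 ratio of replicate 2 over replicate 1 from TMM-scaled expected counts, with vertical lines for the 95% counting interval and dotted lines at a 2-fold difference. The intervals of Nr5a1 and Gata6 lie above 0, those of Cited2, Tcf21 and Nr0b1 below 0, and those of Wt1, Nr5a2 and Gata4 cross it.

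The other 3 genes stayed within counting error with TMM scaling of expected counts. The log2 ratio was 0.50 for Nr5a2 (-0.01 to 1.02), -0.19 for Wt1 (-0.63 to 0.24) and -0.03 for Gata4 (-0.73 to 0.67), so at this depth differences of up to about those bounds could not be told from none. Nr5a2 was beyond counting error with scaling by total count (0.57) and with read-based counts (0.46). None of the 5 genes averaging at least 100 counts was over 2-fold apart, against 0.451% of 12430 genes at that minimum. The median absolute log2 ratio over these 12430 genes was 0.11. Ratios as large as that of Nr0b1 were found in 4.06% of them, as that of Cited2 in 8.94%, as that of Gata6 in 10.01%, as that of Tcf21 in 11.4% and as that of Nr5a1 in 40.6%.

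Some marker lists differed between the libraries as well, and not in 1 direction. Of the 3 liver and pancreas markers averaging at least 20 counts, Alb and Apoa1 were higher in replicate 2 beyond counting, at log2 ratios of 2.40 and 1.37, and Cela1 was at 0.02. All 8 fat markers were lower in replicate 2, with a median log2 ratio of -0.79 and summed levels of 4599 TPM in replicate 1 and 3239 TPM in replicate 2; Ucp1 had 629 and 303 TPM. Of the 10 markers of capsule and stroma, 8 were lower beyond counting and none higher, with a median of -0.25. Of the 14 NR5A targets, 7 were higher and 2 lower beyond counting, with a median of 0.07. Of the 20 partners, 8 were higher and 1 lower, with a median of 0.01. Over all genes averaging at least 20 counts, 16.7% were called higher and 17.4% lower. Deeply counted genes are called at small ratios, as was Star at 0.09 from 415328 and 439775 counts. The median over the 12430 genes averaging at least 100 counts was -0.004. The part of these lists in the ratios of the 8 genes was not tested. The common dispersion of edgeR over 16789 genes was 0.0105, which is a coefficient of variation between the libraries of 0.103.

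Alignment-based TPM was below read-based TPM for 8 of the 8 genes in both libraries, as it was for the median gene. Over genes at 1 TPM or more by either, the log2 ratio of alignment-based over read-based TPM had a median of -0.86 (replicate 1) and -0.94 (replicate 2). After centring on that median the 8 genes lay between -0.26 and 0.25, and none was over 2-fold apart, against 7.71% of 15242 genes. Centred values were highest for Nr0b1 at 0.25 and 0.18 and lowest for Wt1 at -0.20 and -0.19 and Nr5a2 at -0.18 and -0.26. Rescaled so that protein-coding genes alone make up the 1000000 TPM, the direction depended on the gene. Nr5a1 then averaged 316 ± 31.2 alignment-based and 268 ± 24.6 read-based TPM, whereas Wt1 averaged 3.804 ± 0.149 alignment-based and 4.06 ± 0.152 read-based TPM (SD, n = 2).

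Isoform choice could be compared in 5 genes, those with 2 or more annotated transcripts and 1 TPM or more by both quantifications. The leading transcript was the same by both quantifications in Gata6, Wt1, Cited2 and Tcf21 and differed in Nr5a1. Over the whole table it differed in 24.1% of 11337 genes, so 1 of 5 is near the background. Between the libraries it was the same in 5 of the 5 by the alignment-based table, where 9.57% of genes differed, and in 4 of 5 by the read-based tables, where 11.9% differed.

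**Figure D3:**
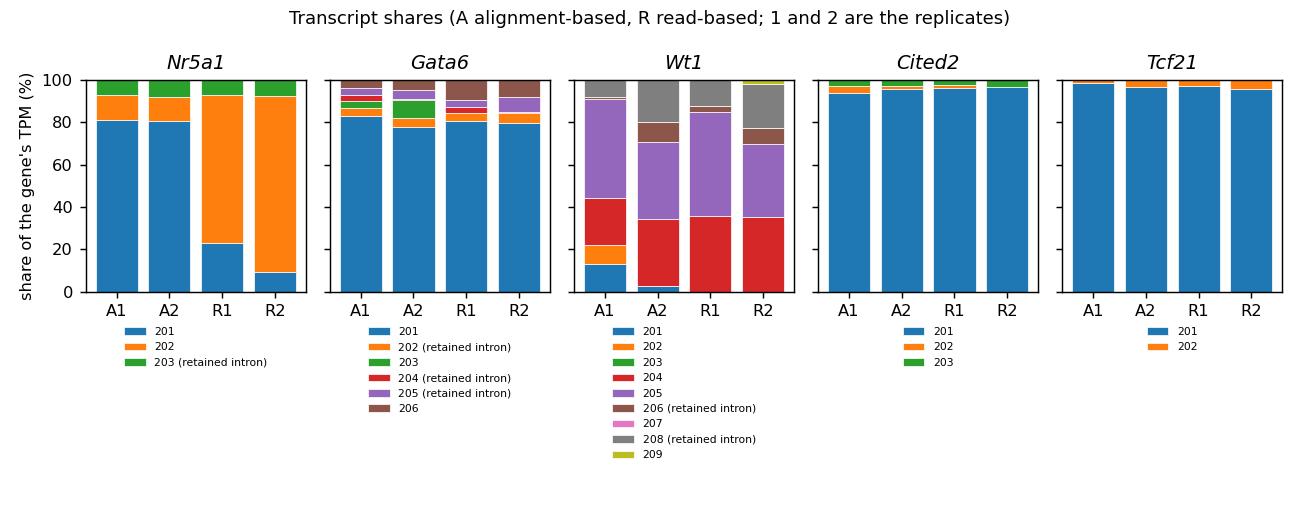
Share of each gene's TPM on each annotated transcript, for 5 genes, in alignment-based replicates 1 and 2 (A1, A2) and read-based replicates 1 and 2 (R1, R2). The leading colour changes between quantifications in Nr5a1, where Nr5a1-201 holds 81.1% and 80.4% by the alignment-based table and 22.8% and 9.1% by the read-based tables.

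The 2 coding transcripts of Nr5a1 carry the same 1386 coding bases and the same exons 2 to 7, and they differ in a noncoding first exon. Exon 1 of Nr5a1-201 is chr2:38714357-38714542 (186 bases) and that of Nr5a1-202 is chr2:38712006-38712234 (229 bases), and their 5′ ends are 2308 bases apart. Nr5a1-202 also runs 4 bases further at its 3′ end. The junctions with exon 2 are shown because the transcripts part there, though the whole of each exon 1 tells them apart. Capitals mark the last 15 bases of exon 1, and lower case the first 15 bases of exon 2, still untranslated (minus strand, GENCODE M21).
Nr5a1-201: TTCTCCTTCCGTTCAgcggacgccgcgggc
Nr5a1-202: CGGCGCGGCCAAAAGgcggacgccgcgggc

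**Figure D4:**
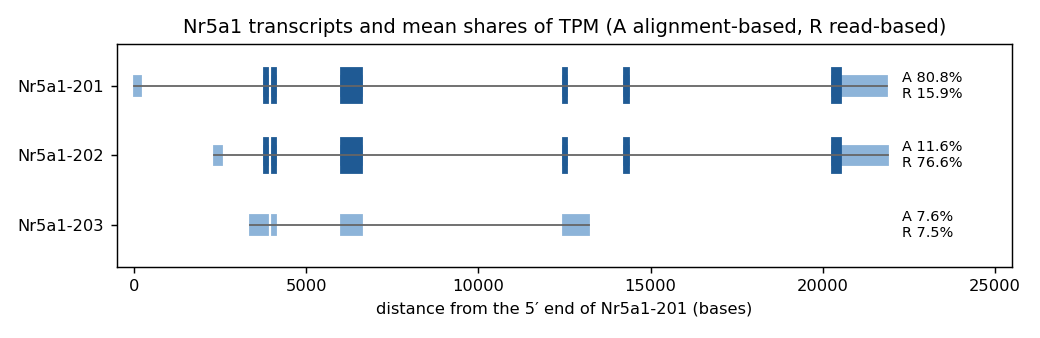
Exons of the 3 annotated Nr5a1 transcripts against distance in bases from the 5′ end of Nr5a1-201, with coding parts tall and dark and noncoding parts pale. The mean shares of TPM at the right are 80.8% alignment-based and 15.9% read-based for Nr5a1-201, and 11.6% alignment-based and 76.6% read-based for Nr5a1-202.

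Nr5a1-201 had 70.8 and 82.7 TPM by the alignment-based table, and 33.2 and 16.3 TPM by the read-based tables. Nr5a1-202 had 10.2 and 11.8 TPM by the alignment-based table, and 102 and 149 TPM by the read-based tables. The quantifications thus named opposite first exons as the main one, in both libraries. Taken from the mean TPM of the libraries, the share of Nr5a1-201 was 65.5 percentage points lower by the read-based tables. Drops of over 50 points, taken in the same way, occurred in 5.42% of 11337 genes. The alignment-based shares of the libraries were 0.495 points apart as an SD, and the read-based shares 9.66 points.

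The intervals that the alignment-based quantifier wrote for its own estimate were narrow, at 67.0 to 71.8 TPM in replicate 1 and 78.2 to 83.6 TPM in replicate 2 for Nr5a1-201. The windows behind them are few. Of the 2848 windows of 100 bases in Nr5a1-201, 186 (6.53%) are absent from the other Nr5a1 transcripts, and of the 2895 in Nr5a1-202, 231 (7.98%). The third transcript, Nr5a1-203, an intron-retaining model with no coding part that starts 1046 bases downstream of the 5′ end of Nr5a1-202, has 53.7% of its windows to itself. Its share was 7.19% and 8.04% by the alignment-based table and 7.23% and 7.68% by the read-based tables, so here the quantifications were close. Nr5a1os, an antisense gene that overlaps the locus, had 5 and 6 counts. Strand use in the authors' quantification was not given in the sources used here.

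Wt1 is known for splice forms that differ by exon 5 and by 9 bases at the end of exon 9, which add lysine, threonine and serine (KTS) between zinc fingers and change DNA and RNA binding. Both choices are annotated here, and the junctions are shown because they define the forms. The Wt1 isoform values need not rest on reads over them, since Wt1-205 (3090 bases) and Wt1-204 (1418 bases) also differ in length. The KTS bases lie at chr2:105170010-105170018 on the plus strand, and exon 5 at chr2:105144142-105144192 (51 bases). Capitals mark the 9 bases in the upper pair and exon 5 in the lower pair, and exons are numbered as in Wt1-205.
Wt1-205, exon 9 to 10: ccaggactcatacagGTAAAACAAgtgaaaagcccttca
Wt1-204, exon 9 to 10: ccaggactcatacaggtgaaaagcccttca
Wt1-205, exon 4 to 6: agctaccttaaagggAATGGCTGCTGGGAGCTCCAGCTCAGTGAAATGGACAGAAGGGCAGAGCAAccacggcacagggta
Wt1-204, exon 4 to 6: agctaccttaaagggccacggcacagggta

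Wt1-205, which has exon 5 and the KTS bases, led by the mean of both quantifications. It held 46.8% and 36.1% of the Wt1 TPM by the alignment-based table, and 49.3% and 34.4% by the read-based tables. Wt1-204, an incomplete model without either, held 22.0% and 31.9% by the alignment-based table and 35.6% and 35.1% by the read-based tables, where it led in replicate 2. Wt1-201, which starts from a downstream first exon, held 12.8% and 2.52% by the alignment-based table and 0 TPM by the read-based tables. The intron-retaining models together held 9.17% and 29.4% by the alignment-based table and 15.1% and 28.5% by the read-based tables, Wt1-208 the most of it, so replicate 2 was the higher library by both.

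Transcripts with the KTS bases held 65.7% and 54.8% of the TPM of the 7 protein-coding Wt1 transcripts by the alignment-based table and 58.0% and 50.9% by the read-based tables. As a share of counts the same transcripts held 76.9% and 72.8% by the alignment-based table and 77.8% and 71.8% by the read-based tables. Forms with the KTS bases were the larger part in each case. Counts are not divided by length, however, and Wt1-205 has 3090 bases against 1418 for Wt1-204. Transcripts with exon 5 held 61.6% and 51.2% of the TPM by the alignment-based table and 58.0% and 50.8% by the read-based tables. Wt1-205 has both exon 5 and the KTS bases and Wt1-204 neither, so the KTS and exon 5 shares are not separate measurements. These shares rest on 98 and 85 expected counts in the gene by the alignment-based table and 116 and 103 estimated counts by the read-based tables, and Wt1-201, Wt1-203, Wt1-204 and Wt1-209 have no window of 100 bases to themselves within the gene.

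**Figure D5:**
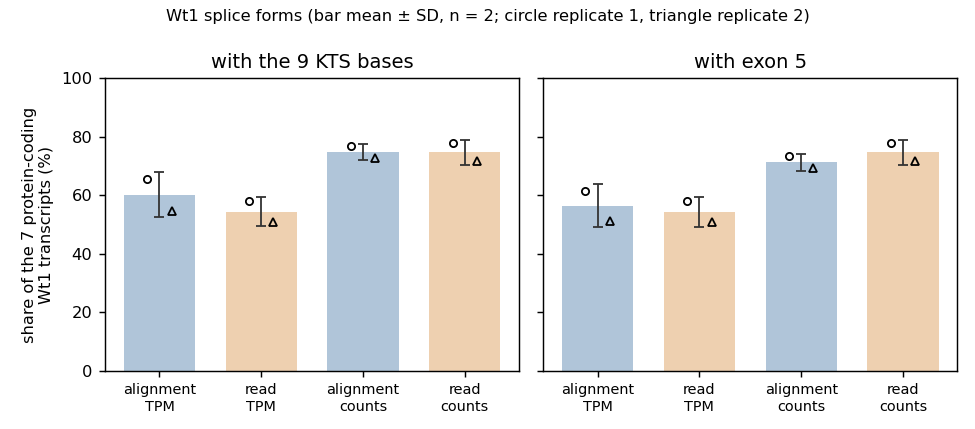
Share in % of the 7 protein-coding Wt1 transcripts held by those with the 9 KTS bases (left) and with exon 5 (right), as TPM and as counts by each quantification, with bars for the mean, error bars for the SD (n = 2), circles for replicate 1 and triangles for replicate 2. Every library lies above 50%, with the read-based TPM of replicate 2 closest to it at 50.9% and 50.8%.

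Gata6-201, the full-length coding transcript, held 83.1% and 77.8% of the Gata6 TPM by the alignment-based table and 80.6% and 79.8% by the read-based tables. The 3 intron-retaining models together held 9.91% and 9.25% by the alignment-based table and 9.99% and 12.3% by the read-based tables. The quantifications differed more in 2 short incomplete coding models, as Gata6-203 averaged 5.70% alignment-based and 0.00544% read-based, and Gata6-206 averaged 4.28% alignment-based and 8.67% read-based. Of the windows of Gata6-201, 49.4% are found in no other Gata6 transcript.

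The leading Gata4 transcript by TPM differed between the libraries. Gata4-204, an incomplete model of an upstream first exon, led in replicate 1 by both quantifications with 50% alignment-based and 57.1% read-based, and Gata4-203 led in replicate 2 by both with 36.7% alignment-based and 38.6% read-based. Gata4-202 led by the alignment-based mean with 48.0% and 30.6%. Gata4-206 held 32.7% in replicate 2 by the alignment-based table and 0 TPM otherwise. The gene had 37 and 36 expected counts. As a share of counts, which does not divide by length, Gata4-202 led in both libraries by the alignment-based table with 83.4% and 50.7%, and Gata4-204, a model of 653 bases, had 5.49 and 0 expected counts.

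The full-length transcripts Gata4-201 and Gata4-202 differ at the start of exon 3 by 3 coding bases at chr14:63204756-63204758 (minus strand), which are in capitals below because they are the coding difference between them. At its 5′ end Gata4-201 also starts 23 bases further upstream.
Gata4-201: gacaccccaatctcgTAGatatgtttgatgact
Gata4-202: gacaccccaatctcgatatgtttgatgact
The alignment-based table gave Gata4-201 0 TPM in both libraries, and the read-based tables gave it 33.5% of the Gata4 TPM in replicate 1 and 0 TPM in replicate 2. By the read-based tables Gata4-202 was the reverse, with 0 TPM in replicate 1 and 31.4% in replicate 2. The alignment-based quantifier's own interval for Gata4-201 reached up to 0.216 TPM in replicate 1, which is near its estimate for Gata4-202 of 0.24 TPM.

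Nr5a2-201, the longest coding transcript, led in both libraries by both quantifications, with 46.8% and 55.4% alignment-based and 51.6% and 51.0% read-based. Nr5a2-202, which has another first exon, held 12.8% and 16.9% by the alignment-based table and 13.8% and 29.5% by the read-based tables. The shorter coding transcripts were not stable, since Nr5a2-205 had 25.5% in replicate 1 and 0 TPM in replicate 2 by the alignment-based table. Nr5a2-203 had 0 TPM in replicate 1 and 13.8% in replicate 2 by that table, and the read-based tables gave 8.03% and 0%. The intron-retaining Nr5a2-204 held 12.8% and 13.8% by the alignment-based table from 1.32 and 1.78 expected counts.

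Among the genes with 2 or more annotated transcripts, Cited2 (3 transcripts) and Tcf21 (2 transcripts) had the highest leading shares. Cited2-201, in which an intron of 478 bases is spliced out, held 93.9% and 95.8% by the alignment-based table and 96.1% and 96.6% by the read-based tables. Of the 1880 windows of Cited2-201, 142 (7.55%) are absent from the other Cited2 transcripts. The unspliced Cited2-203, which also has 807 coding bases, averaged 2.88% alignment-based and 2.93% read-based. Over all 11337 genes the median share of the alignment-based leading transcript was 65.8% by the alignment-based table, and the same transcripts had a median of 55.7% by the read-based tables.

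Tcf21-201 held 98.4% and 96.4% by the alignment-based table and 96.9% and 95.9% by the read-based tables. The rest lay on Tcf21-202, a single-exon model in which the coding sequence runs on into the intron of 1627 bases. The sequences at that site show what separates the spliced form, with exon 2 in capitals, from the unspliced form, with the intron in capitals (minus strand).
Tcf21-201: cacccagtcaacctgACGTGGCCCTTTATG
Tcf21-202: cacccagtcaacctgGTGAGTCCTCCCGCG
Tcf21-202 averaged 2.63% alignment-based and 3.62% read-based, and 64.1% of its windows are absent from Tcf21-201. The antisense gene Gm10824, which spans the whole Tcf21 locus, had 8 and 7 counts.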

How the data were processed

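Total RNA of the adrenal gland was sequenced in 2 libraries. The build was mm10 per the labels, and the annotation GENCODE M21 per the notes deposited with the files; which aligner and quantifiers ran is not given in the sources used here. The authors deposited expected counts, TPM and FPKM per gene and transcript, with a percent of each gene's transcripts per isoform, in tables with the column names of RSEM (alignment-based), per the file headers. They also deposited estimated counts and TPM per transcript in tables with the column names of kallisto (read-based), per the file headers. The deposited effective length was the length minus 99 bases in the alignment-based tables and, for long transcripts, minus 325 and 326 bases (medians) in the read-based tables, so short models are scaled differently. Estimated counts summed to 35315387 and 33397838 in the read-based tables. Assignment of reads from CAST alleles was not tested.

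Read-based values were summed per gene. Counts were rounded before TMM scaling and the dispersion estimate (edgeR 4.0.16 in R 4.3.3) over genes that had at least 10 counts in each library; DESeq2 1.42.0 was the alternative. Ratios used 0.5 added counts or 0.01 added TPM. With 1 group there is no test of a condition. The libraries differed by more than sampling noise (chi-square of 33.0 per gene over 16789 genes), which does not show whether they come from separate animals; they were treated as the labels give them. Animal numbers differ between the sample descriptions but not between the library descriptions or donor fields. Scripts were tested on simulated data. Sequences and exons were read from GENCODE M21 transcripts on GRCm38; none is printed for Gata6.

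The members and lists were chosen with earlier results of these data known. The rule for names took all 8 genes, transcripts at 10% or more of their gene's TPM in any library, the 4 highest genes of each list, any NR5A target or partner, and antisense rows; other transcripts, overlapping genes and defining markers near 0 were named after their values were seen. Many of the list genes that this rule allows enter only the counts and sums, and some are not reported here by name.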

Additional observations from a re-analysis of the deposited data

How the results depend on the processing

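The order of the 8 levels was the same with read-based TPM, FPKM and TPM over protein-coding genes, and 6 to 8 genes kept their place when either replicate was left out, Nr5a2 and Gata4 changing places without replicate 2. Between the libraries, 2 to 3 genes were higher and 2 to 3 lower beyond counting under each scaling, quantification, added count and filter. Tcf21 was within counting by total count (-0.26) and by TPM ratio (-0.25), and Nr5a2 was beyond it by total count (0.57) and by read-based counts (0.46). Wt1 (-0.19) and Gata4 (-0.03) stayed within counting but turned positive, Wt1 by TPM ratio (0.11) and Gata4 by total count (0.04). The number of genes over 2-fold apart between the libraries was 55 to 71. The dispersion was 0.0200 by DESeq2, against 0.0105 by edgeR. Without centring, 4719 genes and 2 of the 8, Nr5a2 and Wt1, were over 2-fold apart between the quantifications; with either replicate left out 1332 to 1340 genes and none of the 8 were. The share of Nr5a1-201 was 82.6% of counts, 87.5% of protein-coding TPM and 15.9% of read-based TPM, and 80.4% to 81.1% with either replicate left out. The leading transcript was the same by both quantifications in 5 of 7 genes with no minimum TPM, in 3 of 4 at 5 TPM, and in 3 to 4 of 5 with either replicate left out. The cause of these differences was not tested. No paired analysis was possible because the libraries form 1 group. Low counts limit Gata4, Nr5a2 and Wt1, whose transcript shares rest on few reads.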

Other observations

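Relatives of the 8 genes were present at levels above some of them. Gata2 had 15.2 and 10.8 TPM and Gata3 had 7.55 and 6.11 TPM, both factors known from chromaffin and other sympathoadrenal cells, and both were lower in replicate 2 beyond counting, with log2 ratios of -0.57 and -0.34. Gata2 and Gata3 were thus each above Gata4 in both libraries, whereas Gata1, a factor of the erythroid lineage, had 0.14 and 0.18 TPM and Gata5 had 0.08 and 0.04 TPM. Cited1, a relative of Cited2, had 5.59 and 9.71 TPM with a log2 ratio of 0.69, in the direction opposite to that of Cited2, and Cited4 had 3.27 and 2.91 TPM. Of the helix-loop-helix relatives of Tcf21, Tcf15 had 1.66 and 1.19 TPM, Tcf24 0.64 and 1.12 TPM, Tcf23 0.38 and 0.49 TPM and Msc 0.10 and 0.11 TPM, all below Tcf21.

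1010001N08Rik, a noncoding gene on the strand opposite to Gata6 that overlaps its 5′ end, had 203 and 261 counts and 8.63 and 11.8 TPM. Its log2 ratio of replicate 2 over replicate 1 was 0.37, beside 0.36 for Gata6. Wt1os, which starts 19 bases upstream of Wt1 on the opposite strand, had 2 and 6 counts. Whether reads of these pairs were separated by strand was not tested.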
